A study of Mus musculus with 21 samples.

Results

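Proline tRNAs carry proline to the ribosome for the 4 codons that begin with CC. The count tables hold them as 5 nuclear rows named Pro-AGG-1, Pro-CGG-1, Pro-TGG-1-1, Pro-TGG-2 and Pro-TGG-3-1, out of 209 tRNA rows in the cerebrum table and 208 in the cerebellum table, a bacterial spike-in row apart. The rule that chose them uses the name alone: all rows whose name starts with Pro- and does not end in -MT. No measured value enters the rule, but earlier results of these data were known when they were chosen. Their counts were also summed per anticodon into Pro-AGG, Pro-CGG and Pro-TGG. Pro-AGG and Pro-CGG have 1 row each, so row and sum hold the same counts, while Pro-TGG adds 3 rows. All 5 rows passed the filter on low counts in every comparison. The mitochondrial proline row, Pro-TGG-MT, is made by another polymerase and served only as a comparator.

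The libraries came from C57BL/6J mice in which tamoxifen induced a Polr3a mutation (Polr3a mutant) and from wildtype mice that also received tamoxifen, so all groups share the drug. The drug-induced recombination was at postnatal day 28, and the tissues were frozen at postnatal day 42. QuantM-tRNA-seq, a library method for tRNA, was applied to total RNA from cerebrum (4 mutant, 6 wildtype) and cerebellum (5 mutant, 6 wildtype), 21 libraries in all. Each group held males and females, with more males than females in the wildtype groups only. The labels name neither the mutation nor the promoter of the recombinase, and nothing in them ties each library to an animal of its own, so the p-values reflect only the spread between libraries. In bulk tissue, fewer cells of a type and less tRNA per cell cannot be told apart. A tRNA library holds no messenger RNA, so neither the Polr3a mutation nor the tissue could be checked by marker genes.

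Polr3a is the largest subunit of RNA polymerase III, which transcribes nuclear tRNA genes from promoter elements inside the gene, the A box and the B box. The first anticodon base decides which codons a tRNA can read. In Pro-AGG the adenosine at this position is edited to inosine, which lets the tRNA read several proline codons; Pro-CGG pairs with CCG, and Pro-TGG pairs with CCA and, by wobble, with other codons of the box. Reverse transcriptase copies inosine as guanosine, so reads from edited Pro-AGG differ from the gene at that base. The sources do not state how such reads, or reads shared by similar isodecoders (tRNAs with 1 anticodon and different bodies), were assigned, and levels set against each other between proline rows are uncertain to that extent.

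The RefSeq gene table of the GRCm38.p6 build lists 16 nuclear proline tRNA genes on 9 chromosomes: 6 with anticodon AGG, 3 with CGG and 7 with TGG. All 16 are 72 bases long, so counts of the rows were compared without a length correction. Of the 16 genes, 6 lie within 1000 bases of another proline tRNA gene. The closest pair is n-TPtgg8 (chr7:98815415-98815486) and n-TPagg7 (chr7:98815676-98815747), which are 189 bases apart. On chromosome 1, n-TPagg2 (chr1:165641634-165641705) and n-TPcgg2 (chr1:165642271-165642342) are 565 bases apart. Only n-TPtgg2 (chr11:67291139-67291210) overlaps a gene of the GENCODE M21 annotation, Myh8, a myosin heavy chain gene, where it lies in an exon of the retained-intron transcript Myh8-204 and within the span of its protein-coding transcript. The files do not pair row names with these genes, so no row was placed at a locus. The 2 proline tRNA sequences held by the reference are shown to set a nuclear TGG gene beside the mitochondrial gene that has the same anticodon, printed in capitals.
n-TPtgg2: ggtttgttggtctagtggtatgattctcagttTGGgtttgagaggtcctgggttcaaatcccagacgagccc
mt-Tp: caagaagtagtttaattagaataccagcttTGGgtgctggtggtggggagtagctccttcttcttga

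The first is on the plus strand of chromosome 11 and the second, 67 bases, on the minus strand of the mitochondrial genome (chrM:15356-15422). In both, a script placed TGG in the middle of a loop closed by a stem of 5 base pairs, at positions 33 to 35 of n-TPtgg2 and 31 to 33 of mt-Tp, counted from the 5′ end. A global alignment matched 36 bases, with 28 mismatches and 11 gap positions. The first part of the B box consensus was searched as GGTTCNA on the printed strand of the 2 genes. It was found at positions 51 to 57 of n-TPtgg2 and nowhere in mt-Tp. Searched on both strands, 2.43% of 32851 windows of 72 bases upstream of RefSeq genes held it. A match of letters describes the sequence and shows no binding.

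The 21 libraries held 1612754 to 7588902 tRNA counts. Cerebrum libraries held at least 4353056, with 48190 to 134035 proline counts each, and cerebellum libraries held 19816 to 101098 proline counts. The cerebellum libraries fell into a shallow class of 6 libraries (1612754 to 2272675 counts; 1 mutant and 5 wildtype) and a deep class of 5 (4831721 to 7110313; 4 mutant and 1 wildtype), which nearly follow genotype. Each tissue has its own table, so tissue and table cannot be told apart. Mitochondrial tRNAs took 14.3% ± 1.19 (SD, n = 4) of counts in mutant cerebrum against 11.2% ± 0.445 (n = 6) in wildtype, and 17.2% ± 3.005 (n = 5) against 13.4% ± 0.700 (n = 6) in cerebellum. Library cerebrum mutant 1 stood apart for proline tRNAs, and the genotype and tissue results that use it are also given without it where that moved them.

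Levels are TMM-scaled values per 1000000 counts (CPM), a scaling that sets most tRNAs as unchanged, computed over all 21 libraries. Pro-TGG-2 was the most abundant nuclear proline row in wildtype cerebrum at 5419 ± 1023 CPM (SD, n = 6). Next came Pro-TGG-1-1 at 4259 ± 764 CPM and Pro-CGG-1 at 4017 ± 745 CPM, whose ranges over the libraries overlapped. Pro-AGG-1, at 280.1 ± 57.8 CPM, and Pro-TGG-3-1, at 240.3 ± 37.8 CPM, were more than an order of magnitude lower. The ranges of these neighbours overlapped as well. The rows thus form a major class of 3 and a minor class of 2. Rows share their libraries, and differences between rows within a library were not tested. Among 182 nuclear rows in both tables, counted from the highest mean level in wildtype cerebrum, Pro-TGG-2 ranked 34, Pro-TGG-1-1 42, Pro-CGG-1 47, Pro-AGG-1 103 and Pro-TGG-3-1 108. In wildtype cerebellum the ranks were 43, 56, 55, 122 and 133 in the same order. The mitochondrial Pro-TGG-MT, at 7729 ± 1254 CPM in wildtype cerebrum, exceeded each single nuclear row, while the 3 nuclear TGG rows together held 9918 ± 1768 CPM.

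Gene number and level did not run in the same order over the 3 anticodons. Pro-AGG, with 6 genes in the RefSeq table, was the lowest of the 3, at 280.1 CPM in wildtype cerebrum, whereas Pro-CGG, with 3 genes, stood at 4017 CPM. Against the other codon boxes read by an inosine anticodon, Pro-AGG had the lowest wildtype cerebrum level of 8 anticodons starting with A, whose levels ran from 280.1 to 38224 CPM with a median of 5777. Pro-CGG was also the lowest of the 7 anticodons starting with C in these boxes, which ran from 4017 to 26617 CPM. Pro-TGG, at 9918 CPM, stood above the median of 9037 CPM of the 8 starting with T.

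**Figure D1:**
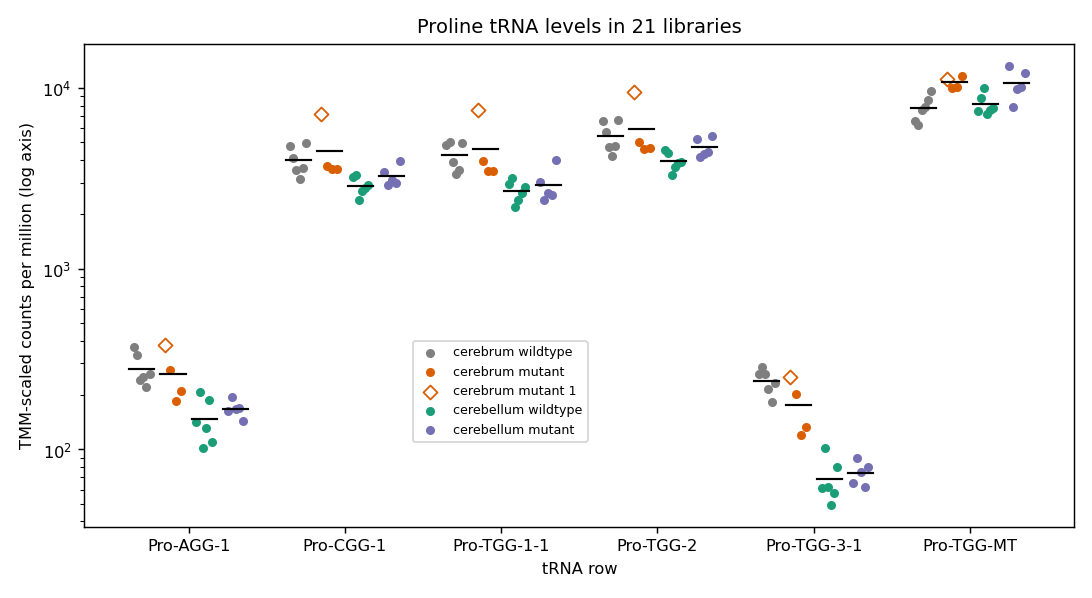
TMM-scaled CPM (log axis) of the 5 nuclear proline rows and the mitochondrial row in each of the 21 libraries, with black bars for group means and an open diamond for cerebrum mutant 1. The 3 major rows lie at 2183 CPM or above in every library, the 2 minor rows at 380.3 or below, and the diamond is the highest point of each major row.

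The make-up of the nuclear proline pool was described by shares. Pro-TGG-2 took 38.1% ± 0.918 of nuclear proline counts in wildtype cerebrum, Pro-TGG-1-1 took 29.98% ± 1.52 and Pro-CGG-1 took 28.3% ± 0.993 (SD, n = 6). Pro-AGG-1 took 1.98% ± 0.280 and Pro-TGG-3-1 took 1.71% ± 0.285. By anticodon, TGG made up 69.8% ± 0.850 of the pool in wildtype cerebrum and 68.8% ± 0.363 in wildtype cerebellum (n = 6). Shares of 1 pool are not independent of each other, since a row can rise only where the others fall.

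The 3 major rows deviated together from library to library. Over the 21 libraries, log2 deviations from the group mean correlated at r = 0.99 between Pro-CGG-1 and Pro-TGG-2, 0.96 between Pro-CGG-1 and Pro-TGG-1-1, and 0.95 between Pro-TGG-1-1 and Pro-TGG-2. The other 7 pairs, all with a minor row, lay between 0.54 and 0.64. Without cerebrum mutant 1, the 3 major pairs had r of 0.98, 0.91 and 0.90 over 20 libraries, and Pro-TGG-2 with Pro-TGG-3-1 had 0.31. These correlations are descriptions, and the points share library depth and scaling. How reads that fit more than 1 proline row were assigned is not stated, and its part in r was not tested. With Pro-TGG-MT the 5 rows correlated between -0.35 and 0.16. The spread of the major rows was ordinary: the within-group SD on the log2 scale was 0.28 for Pro-CGG-1, 0.29 for Pro-TGG-2 and 0.32 for Pro-TGG-1-1, beside a median of 0.27 over 182 nuclear rows.

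**Figure D2:**
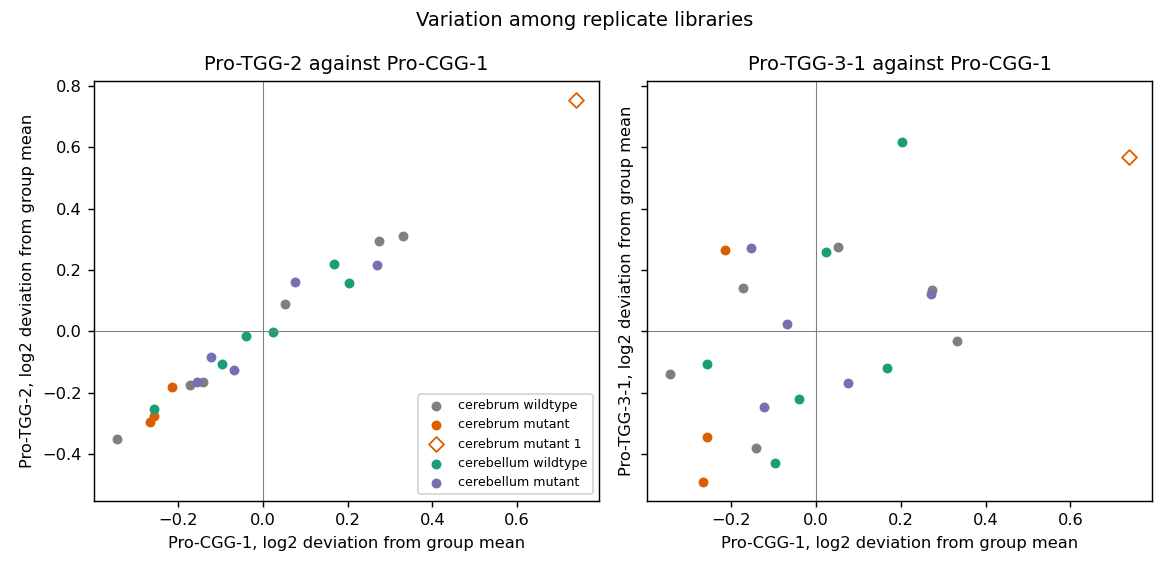
Log2 deviation of each library from its group mean for Pro-TGG-2 (left) and Pro-TGG-3-1 (right) against Pro-CGG-1, 21 libraries coloured by group, with cerebrum mutant 1 as an open diamond. Points lie close to a line on the left (r = 0.99) and scatter on the right (r = 0.56).

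Outside proline, the 3 nuclear rows with the most similar deviations were named for each member by the rule given with the processing. Lys-TTT-1 was the closest to Pro-TGG-1-1 (r = 0.85 over 21 libraries, 0.80 without cerebrum mutant 1) and to Pro-TGG-2 (0.76, and 0.66 without it), and the second closest to Pro-CGG-1 (0.75, and 0.65 without it). Asp-GTC-2-1 was the closest to Pro-CGG-1 (0.76) and the second closest to Pro-TGG-2 (0.73), but these values fell to 0.44 and 0.38 without cerebrum mutant 1. Asp-GTC-1 had 0.75 with Pro-CGG-1 (0.41 without it), Arg-ACG-1 0.76 with Pro-TGG-1-1 (0.58), Cys-GCA-18-1 0.73 with Pro-TGG-1-1 (0.72) and Arg-CCT-2 0.73 with Pro-TGG-2 (0.62). Pro-AGG-1 was closest to Ser-AGA-1-1 (0.80, and 0.74 without it), Arg-ACG-3 (0.73, 0.62) and Lys-CTT-14-1 (0.71, 0.61). Pro-TGG-3-1 was closest to Gln-CTG-2 (0.68, 0.60), Lys-TTT-5-1 (0.65, 0.58) and Lys-CTT-1-1 (0.63, 0.55).

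In cerebrum, none of the 5 proline rows passed the test between mutant and wildtype with TMM scaling, where 19.7% of 208 tRNAs tested did, 17 higher and 24 lower. The test was edgeR's quasi-likelihood test with Benjamini-Hochberg adjustment over all tRNAs, at a threshold of 0.05. Log2 changes come from the fit of each tissue alone and can differ from the CPM means, which use 1 scaling for all libraries. For the Pro-CGG and Pro-TGG sums in cerebrum they differed in sign.

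Pro-TGG-3-1, the lowest row, had the largest difference of the 5. Mutant cerebrum libraries 1 to 4 held 251, 203, 120.1 and 133 CPM, and the 6 wildtype libraries ran from 182 to 288 with a median of 247. The groups overlapped, with 2 of 4 mutants below the lowest wildtype library. The log2 change was -0.53 ± 0.19 (SE; adjusted p = 0.0623 in edgeR's test). It missed the threshold in the full fit and passed it, at -0.68 and adjusted p = 0.00549, without cerebrum mutant 1. It passed as well without mutant 2 (-0.61, adjusted p = 0.0487) or without wildtype 5 (-0.58, adjusted p = 0.0346). With 7 of the 10 libraries left out in turn it did not pass, with adjusted p up to 0.230. It passed with library totals (-0.60, 0.0224), limma-voom (-0.56, 0.0429) or a minimum mean count of 50 (-0.54, 0.0349). It did not pass with RLE size factors (-0.47, 0.0647), DESeq2 (-0.47, 0.0525) or no filter (-0.51, 0.0704). Nor did it with nuclear tRNAs alone (-0.46, 0.120), a sex term (-0.49, 0.0661) or both tissues fitted together (-0.44, 0.136).

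Pro-AGG-1, the inosine-type row, held 380.3, 274, 186 and 211 CPM in the 4 mutants against 221 to 369 in wildtype, median 258. Mutant 1 was above all wildtype libraries and 2 other mutants were below all of them. The log2 change was -0.19 ± 0.20 (adjusted p = 0.570), and -0.35 (adjusted p = 0.151) without mutant 1. In the fit of anticodon sums, where 11.1% of 72 anticodons passed, Pro-AGG gave -0.27 ± 0.19 (adjusted p = 0.393), and -0.45 (adjusted p = 0.0487) without mutant 1. Row and sum hold the same counts, so the sum is not separate evidence beside the row.

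The 3 major rows showed the same picture as each other. Pro-CGG-1, which reads CCG, held 7155, 3693, 3562 and 3587 CPM in the mutants against 3120 to 4982 in wildtype, median 3849. Pro-TGG-1-1 held 7540, 3968, 3489 and 3492 CPM against 3328 to 5018, median 4375. Pro-TGG-2 held 9560, 5003, 4617 and 4678 CPM against 4181 to 6619.7, median 5220.2. For each of these rows mutant 1 was above all wildtype libraries and mutants 2 to 4 lay inside the wildtype range. The log2 changes were 0.07 ± 0.19 for Pro-CGG-1 (adjusted p = 0.845), 0.03 ± 0.19 for Pro-TGG-1-1 (0.951) and 0.04 ± 0.19 for Pro-TGG-2 (0.911).

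These values lay near 0, and with a library left out their sign turned in some cases. Of 10 such values, 1 turned for Pro-CGG-1, 4 for Pro-TGG-1-1 and 3 for Pro-TGG-2. Cerebrum mutant 1, when left out, moved them furthest below 0. Its major rows were 1.98 to 2.07 times the mean of the other 3 mutants, Pro-AGG-1 was 1.70 times and Pro-TGG-3-1 1.65 times, while its Pro-TGG-MT was 1.06 times. As a share of nuclear counts its excess was smaller, 2.03% of nuclear counts being proline against 1.26% to 1.39% in the other mutants and 1.203% to 1.79% in wildtype. Without it, the log2 changes of the major rows were negative, at -0.17 for Pro-CGG-1, -0.24 for Pro-TGG-1-1 and -0.21 for Pro-TGG-2. The Pro-TGG sum then moved from -0.06 ± 0.16 (adjusted p = 0.898) to -0.34 (adjusted p = 0.0245), past the threshold, and the Pro-CGG sum from -0.02 ± 0.16 (adjusted p = 0.946) to -0.28, which did not pass.

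The direction of the major rows depended on the scaling as well. TMM centres the bulk of tRNAs near 0, while scaling to the mitochondrial tRNA total assumes that total to be equal between genotypes. It moved the median log2 change of all 208 tRNAs by -0.39, and turned 17 higher and 24 lower calls into 0 higher and 111 lower. Called lower were then 53.4% of all tRNAs, and 2 of 5 proline rows: Pro-AGG-1 (-0.59 ± 0.19, adjusted p = 0.0111) and Pro-TGG-3-1 (-0.93 ± 0.18, adjusted p = 0.000121). Pro-CGG-1 stood at -0.33 (adjusted p = 0.0887), Pro-TGG-1-1 at -0.38 (0.0589) and Pro-TGG-2 at -0.36 (0.0677), all below 0 where TMM had them above it. On this scale 36.1% of 72 anticodons were called lower, and the Pro-AGG sum was among them (-0.59, adjusted p = 0.0219) whereas Pro-TGG (-0.38, adjusted p = 0.0560) and Pro-CGG (-0.33, adjusted p = 0.0896) were not. The median of the 22 mitochondrial rows themselves was 0.42 on the TMM scale, with 15 called higher and 0 lower. Pro-TGG-MT was among the 15, at 0.40 ± 0.12 (adjusted p = 0.0210), with all 4 mutants above all 6 wildtype libraries. It did not pass in the fit of anticodon sums (0.32 ± 0.12, adjusted p = 0.0736) or with spike-in scaling (0.057, adjusted p = 0.804).

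**Figure D3:**
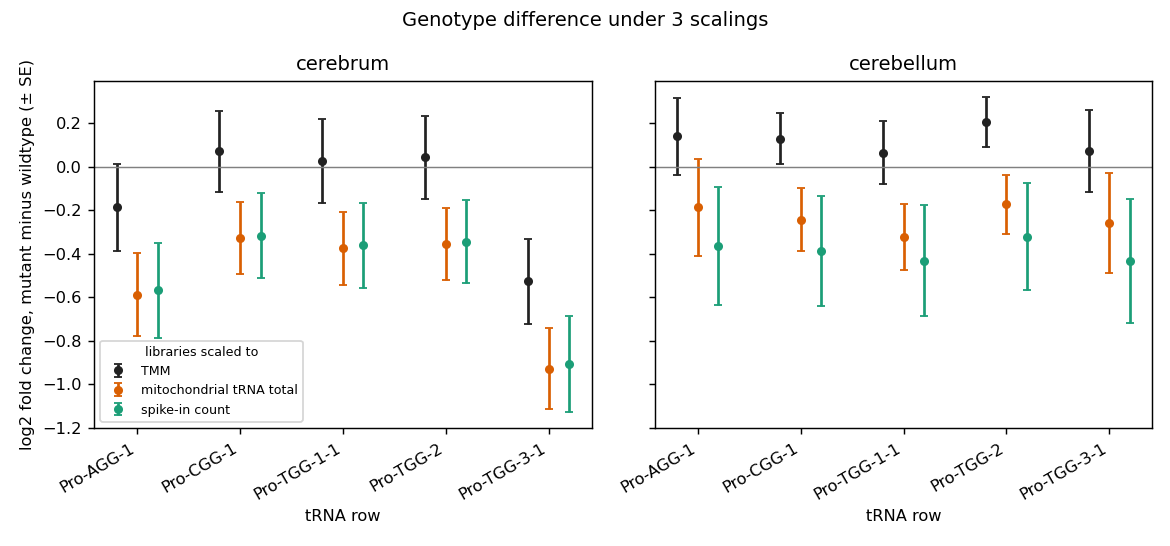
Log2 fold change, mutant minus wildtype, of the 5 proline rows in cerebrum (left) and cerebellum (right), with bars for the standard error, when libraries were scaled by TMM, to the mitochondrial tRNA total or to the spike-in count. Points of the other 2 scalings lie below the TMM points for every row, and Pro-TGG-3-1 is the lowest row in cerebrum under each.

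A ratio within the isotype does not depend on library scaling. Each row was set against the other nuclear proline counts of the same library and tested with limma on the log2 ratio, adjusted over 184 nuclear rows of which 33.2% passed. Only Pro-TGG-3-1 passed among the 5, at -0.57 ± 0.16 (adjusted p = 0.0196). It took 1.01%, 1.55%, 1.003% and 1.098% of the proline pool in the 4 mutants and 1.37% to 2.07%, median 1.71%, in wildtype. Of the mutants, 3 of 4 lay below every wildtype library and mutant 2 lay inside the wildtype range. The call was narrow: adjusted p rose to 0.0616 without mutant 1, 0.0602 without mutant 3 and 0.0521 without mutant 4, with changes of -0.51, -0.51 and -0.55.

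The share of Pro-AGG-1 was 1.53%, 2.08%, 1.55% and 1.75% in the mutants against 1.54% to 2.27%, median 2.04%, in wildtype, a log2 ratio change of -0.20 ± 0.13 (adjusted p = 0.278). The ratios of the major rows moved by 0.06 for Pro-CGG-1 (adjusted p = 0.479), -0.02 for Pro-TGG-1-1 (0.818) and 0.02 for Pro-TGG-2 (0.786). By anticodon, TGG made up 69.2% ± 0.643 (SD, n = 4) of the pool in mutant cerebrum, close to its 69.8% in wildtype, and its change of ratio was -0.04 ± 0.04 (adjusted p = 0.480).

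**Figure D4:**
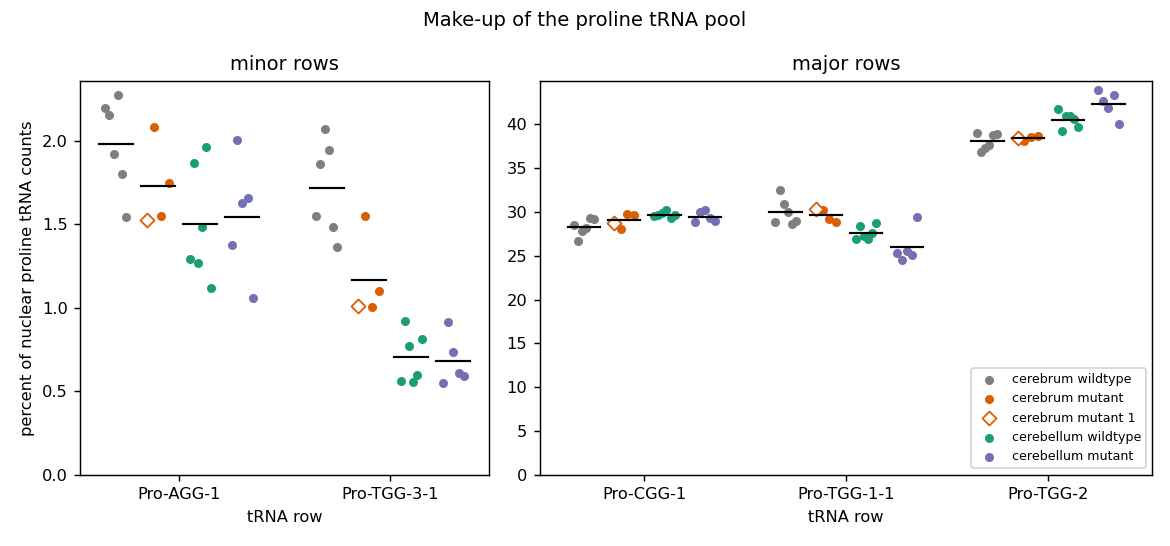
Percent of nuclear proline tRNA counts taken by the minor rows (left) and the major rows (right) in each library, with black bars for group means and an open diamond for cerebrum mutant 1. Pro-TGG-3-1 is lower in cerebellum than in cerebrum in every library, and mutant cerebrum sits mostly below wildtype cerebrum.

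In cerebellum no proline row passed between mutant and wildtype, where 2.48% of 202 tRNAs did. All 5 log2 changes were positive with TMM scaling. Pro-TGG-2 had the largest, 0.21 ± 0.12 (adjusted p = 0.347), with 5225, 4168, 4291, 4414 and 5435 CPM in mutants 1 to 5 against 3283 to 4554, median 3887, in wildtype. Its groups overlapped, with 2 of 5 mutants above all wildtype libraries. Pro-CGG-1 changed by 0.13 ± 0.12 (adjusted p = 0.6247), with 3431, 2925, 3103, 2988 and 3925 CPM against 2399 to 3299.97, median 2853.

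Pro-TGG-1-1 changed by 0.06 ± 0.14 (adjusted p = 0.899), with 3003, 2393, 2623, 2551 and 3988 CPM in mutants against 2183 to 3167, median 2727. Mutant 5 alone lay above the wildtype range. Pro-AGG-1 changed by 0.14 ± 0.18 (adjusted p = 0.769), with 164, 196, 167, 169 and 144 CPM against 102 to 208, median 136. Pro-TGG-3-1 changed by 0.07 ± 0.19 (adjusted p = 0.899), with 65.6, 89.2, 75.2, 62.2 and 80.3 CPM against 49.4 to 103, median 61.7. For both minor rows all mutants lay inside the wildtype range. None of the 3 anticodon sums passed, and neither did any of the 71 anticodons (0%); 17 of them had an unadjusted p under 0.05 in edgeR's test. The sums changed by 0.08 for Pro-AGG (adjusted p = 0.798), 0.06 for Pro-CGG (0.798) and 0.08 for Pro-TGG (0.752).

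Here too the direction followed the scaling. With mitochondrial scaling 26.2% of 202 tRNAs were called lower, no proline row among them, and all 5 rows were below 0, from -0.32 for Pro-TGG-1-1 to -0.17 for Pro-TGG-2. The median of all tRNAs moved by -0.34. Depth moved with genotype in this tissue: with depth class in the model Pro-AGG-1 changed by -0.0025 where it had been at 0.14, not past the threshold. The deep class has 1 wildtype library and the shallow class 1 mutant library, so values within a class compare a single library on 1 side; for Pro-AGG-1 they were -0.21 in the deep class and 0.22 in the shallow class.

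The balance within the cerebellar pool was likewise not called. With the limma ratio test 3.91% of 179 nuclear rows passed and none of the 5 did. Pro-TGG-1-1 had a ratio change of -0.12 ± 0.08 (adjusted p = 0.438) and Pro-TGG-2 of 0.11 ± 0.06 (0.415). Of the mutants, 4 of 5 lay below all wildtype libraries in the share of Pro-TGG-1-1, while mutant 5, at 29.4%, lay above all of them. Pro-TGG-3-1 took 0.552% to 0.913% of the pool in mutants and 0.556% to 0.920% in wildtype, a ratio change of -0.05 ± 0.17 (adjusted p = 0.912).

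The genotype effects of the 2 tissues were compared directly as a difference, cerebellum minus cerebrum, over all 21 libraries. None of the 5 rows passed, where 4.90% of 204 tRNAs did. Pro-TGG-3-1 had the largest difference, 0.57 ± 0.28 (adjusted p = 0.336 in edgeR's test). Its ratio to the rest of the pool gave 0.52 ± 0.24 (adjusted p = 0.178), in a test that 13.3% of 180 rows passed. The sums gave 0.36 ± 0.29 for Pro-AGG (adjusted p = 0.799), 0.08 ± 0.24 for Pro-CGG (0.968) and 0.15 ± 0.24 for Pro-TGG (0.968), where 1.39% of 72 anticodons passed. Without cerebrum mutant 1 the differences were 0.78 for Pro-TGG-3-1 (adjusted p = 0.132), 0.55 for the Pro-AGG sum (0.498), 0.35 for Pro-CGG (0.551) and 0.42 for Pro-TGG (0.446), none past the threshold. A difference between tissues in the response of proline tRNAs was therefore not detectable.

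The tissues themselves differed. In wildtype mice all 5 proline rows were lower in cerebellum than in cerebrum with TMM scaling, where 37.7% of 204 tRNAs were called lower and the median log2 difference was -0.05. The median of the 5 rows was -0.66. Pro-TGG-3-1 had the largest difference, -1.82 ± 0.19 (adjusted p = 2.62e-09, edgeR), or 3.52-fold lower: 49.4 to 103 CPM in wildtype cerebellum against 182 to 288 in wildtype cerebrum, with no overlap. Pro-AGG-1 was lower by -0.93 ± 0.18 on the log2 scale (adjusted p = 5.48e-05), at 102 to 208 CPM against 221 to 369, again without overlap.

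The major rows differed less. Pro-TGG-1-1 differed by -0.66 ± 0.17 (adjusted p = 0.000952), at 2183 to 3167 CPM against 3328 to 5018, with no overlap. Pro-CGG-1 differed by -0.48 ± 0.15 (adjusted p = 0.00694) and Pro-TGG-2 by -0.46 ± 0.16 (adjusted p = 0.00927), and for each of these 4 of 6 cerebellum libraries lay below all cerebrum libraries. All 3 sums were called lower among 38.9% of 72 anticodons: Pro-AGG by -0.92 ± 0.19 (adjusted p = 8.54e-05), Pro-TGG by -0.55 ± 0.16 (0.00251) and Pro-CGG by -0.46 ± 0.15 (0.00812). Pro-TGG-MT did not differ by this test, at 0.07 ± 0.13 (adjusted p = 0.608).

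Part of this depends on how libraries are scaled. With library totals the median difference of all tRNAs moved by 0.29, and 68 higher and 77 lower calls became 85 and 55. Pro-TGG-3-1 (-1.53, adjusted p = 2.08e-08), Pro-AGG-1 (-0.64, 0.00233) and Pro-TGG-1-1 (-0.37, 0.0271) stayed past the threshold, but Pro-CGG-1 (-0.18, 0.218) and Pro-TGG-2 (-0.17, 0.266) did not. Proline made up 1.48% ± 0.257 of nuclear counts in wildtype cerebrum and 1.27% ± 0.157 in wildtype cerebellum (SD, n = 6), and 5 of 6 cerebellum libraries lay inside the cerebrum range. Spike-in scaling moved the median by -0.93 and put all 5 rows lower, from -1.39 for Pro-TGG-2 to -2.76 for Pro-TGG-3-1. On that scale 138 of the 204 tRNAs were called lower and 6 higher. The sources do not state how much spike-in each tissue received.

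The ratio test, free of that scaling, describes the make-up of the pool and cannot see a fall shared by all its rows. Within the pool, the largest log2 changes of ratio were in the minor rows. With limma 61.7% of 180 nuclear rows passed. Pro-TGG-3-1 fell relative to the other proline counts by 1.31 ± 0.16 on the log2 scale (adjusted p = 7.61e-07). Its share was 0.704% ± 0.152 in wildtype cerebellum against 1.71% ± 0.285 in wildtype cerebrum (SD, n = 6), and all 6 cerebellum libraries were below all 6 of cerebrum. Pro-AGG-1 fell by 0.43 ± 0.16 (adjusted p = 0.0261), to 1.4995% ± 0.344 of the pool, with 4 of 6 libraries below the cerebrum range. Pro-TGG-1-1 fell by 0.17 ± 0.06 (adjusted p = 0.0291), to 27.6% ± 0.772. Pro-TGG-2 rose by 0.15 ± 0.05 (adjusted p = 0.0139), to 40.5% ± 0.908, with all 6 cerebellum libraries above all 6 of cerebrum. Pro-CGG-1 moved by 0.10 ± 0.05 (adjusted p = 0.0594) and did not pass. The calls of Pro-AGG-1 and Pro-TGG-1-1 were narrow. Adjusted p for Pro-AGG-1 rose to between 0.0513 and 0.0684 without cerebrum wildtype 1, 2 or 4 or cerebellum wildtype 1, 3 or 6, with changes of -0.35 to -0.40. For Pro-TGG-1-1 it rose to between 0.0578 and 0.0794 without cerebrum wildtype 2 or 3 or cerebellum wildtype 1 or 4, and Pro-CGG-1 passed without cerebrum wildtype 5 (0.12, 0.0449) or 6 (0.12, 0.0433). Pro-TGG-3-1 and Pro-TGG-2 passed with any library left out. Within TGG, Pro-TGG-2 took 58.8% ± 1.28 of the anticodon's counts in wildtype cerebellum and 54.6% ± 1.93 in wildtype cerebrum.

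**Figure D5:**
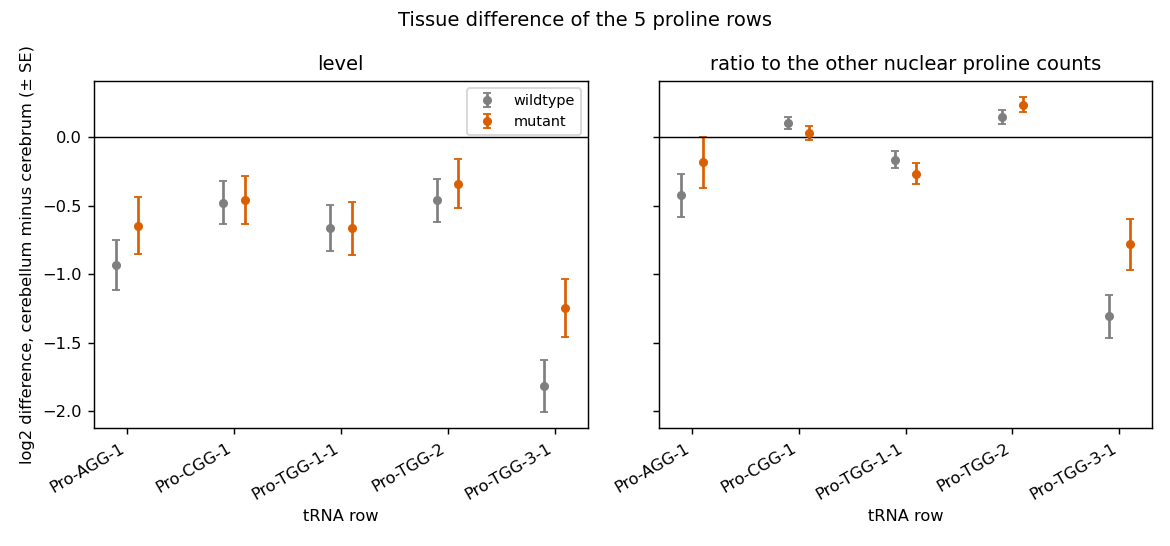
Log2 difference, cerebellum minus cerebrum, with bars for the standard error, in wildtype and in mutant mice: levels with TMM scaling (left) and ratios to the other nuclear proline counts (right). All 5 rows are below 0 on the left, and Pro-TGG-3-1 is the lowest on both sides.

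The mutant groups showed a similar tissue order with fewer calls. With TMM scaling, 4 of 5 rows were called lower in mutant cerebellum than in mutant cerebrum, against 36.8% of 204 tRNAs. Pro-TGG-3-1 differed by -1.25 ± 0.21 (adjusted p = 9.52e-06), Pro-TGG-1-1 by -0.67 ± 0.19 (0.00318), Pro-AGG-1 by -0.65 ± 0.21 (0.00656) and Pro-CGG-1 by -0.46 ± 0.18 (0.0217), while Pro-TGG-2 (-0.34 ± 0.18, 0.0872) did not pass. For Pro-TGG-3-1 all 5 cerebellum mutants lay below all 4 cerebrum mutants. These calls leaned on cerebrum mutant 1: without it Pro-AGG-1 (adjusted p = 0.0766), Pro-CGG-1 (0.404) and Pro-TGG-1-1 (0.102) no longer passed, at -0.43, -0.16 and -0.33, and Pro-TGG-3-1 did (-1.04, 0.000178). Pro-TGG-2 moved to -0.0306 (adjusted p = 0.887) without cerebrum mutant 1, and passed without cerebrum mutant 3 (-0.46, 0.0453) or 4 (-0.44, 0.0380). With library totals Pro-AGG-1 (-0.28), Pro-CGG-1 (-0.095) and Pro-TGG-1-1 (-0.30) did not pass, and with mitochondrial scaling Pro-CGG-1 (-0.36) did not.

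Of the sums, Pro-AGG (-0.55 ± 0.22, adjusted p = 0.0229) and Pro-TGG (-0.40 ± 0.18, 0.0442) were called lower and Pro-CGG (-0.37 ± 0.18, 0.0545) was not, beside 43.1% of 72 anticodons. Without cerebrum mutant 1, Pro-AGG (-0.32, 0.205) and Pro-TGG (-0.083, 0.625411) did not pass. Pro-TGG was lost as well without cerebellum mutant 1 (-0.42), 2 (-0.25), 3 (-0.36) or 4 (-0.38), and Pro-CGG moved to -0.066 (adjusted p = 0.696) without cerebrum mutant 1 and passed without cerebrum mutant 2 (-0.46), 3 (-0.47) or 4 (-0.44) or cerebellum mutant 5 (-0.43). In the ratio test, which 59.4% of 180 rows passed, Pro-TGG-3-1 fell by 0.78 ± 0.19 (adjusted p = 0.00132) and Pro-TGG-1-1 by 0.27 ± 0.07 (0.00435), and Pro-TGG-2 rose by 0.24 ± 0.06 (0.00154). Those are 3 of the 4 rows called in wildtype mice, in the same directions; the 2 tissue comparisons use different libraries but 1 fit. Pro-AGG-1 (-0.18 ± 0.18, adjusted p = 0.406) and Pro-CGG-1 (0.03 ± 0.05, 0.643) did not pass.

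The authors' deposited tables of fold changes hold the same rows. In the authors' deposited cerebrum table of anticodons, where 45.8% of rows had an adjusted p under 0.05, Pro-AGG was lower (log2 -0.60, adjusted p = 0.0374), and Pro-TGG (-0.38, 0.165) and Pro-CGG (-0.33, 0.213) did not pass. In the authors' deposited cerebrum table of isodecoders, with 57.9% of rows past 0.05, Pro-TGG-3-1 (0.93, adjusted p = 0.000387) and Pro-AGG-1 (0.60, 0.0302) passed with positive signs. Against the deposited counts scaled to mitochondrial totals, all 121 called rows of that table had the sign opposite to mutant minus wildtype, whereas the 33, 51 and 13 called rows of the other 3 tables had the same sign. Read as wildtype minus mutant, its proline values have the size of those from mitochondrial scaling above. In the authors' deposited cerebellum tables, where 24.5% of isodecoders and 18.3% of anticodons passed, no proline row did; Pro-TGG-1-1 came closest (-0.29, adjusted p = 0.139).

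Pro-AGG was also set beside the other anticodons of the codon boxes read by inosine. In cerebrum 0 of 8 such anticodons had a positive TMM log2 change between genotypes, beside 20 of the 50 nuclear anticodons. Of the 8, 1 was called lower, beside 2 of the 50, and their median was -0.19, beside -0.048. Pro-AGG was at -0.27. The 7 starting with C had a median of 0.01 and the 8 starting with T of -0.02, with none called in either. In cerebellum the 3 medians were -0.10, -0.034 and -0.0027, none called. Pro-AGG was at 0.08, among 3 of 8 above 0, beside 17 of 49 nuclear anticodons. Between wildtype tissues the anticodons starting with A had a median of 0.20, with 4 of 8 called higher and 3 lower. Over the 50 nuclear anticodons the median was -0.26, with 18 called higher and 23 lower. Pro-AGG, at -0.92, was among the lower. These lists were chosen with earlier results known, and each holds a proline anticodon.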

How the data were processed

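The submitters' processing notes name the mm10 build and the tools DESeq2, cutadapt, featureCounts and Bowtie2, without versions or settings. The authors deposited 1 table of raw counts per tissue and, per the file headers, tables of log2 fold changes with standard errors, p-values, adjusted p-values and a mean signal (counts divided by size factors, averaged over a tissue's libraries). The spike-in row (0.222% to 0.374% of counts in cerebrum, 0.401% to 1.08% in cerebellum) entered no library size and no test.

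Tests used edgeR 4.0.16 and limma 3.58.1 in R 4.3.3: TMM, filterByExpr (count of 10), two-sided quasi-likelihood F tests on robust fits, and adjustment by Benjamini-Hochberg over the whole table with 0.05 as threshold. The standard error is the log2 change over the square root of F. Genotypes were fitted within each tissue; tissue contrasts and the difference of genotype effects used all 21 libraries and 204 shared rows. Ratios used limma on log2((count + 0.5)/(other counts of the nuclear isotype + 0.5)). DESeq2 1.42.0 and the other alternatives are covered in the closing section. The code was tested on simulated counts with known changes.

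All proline rows and sums were named, plus, for each row, the 3 non-proline nuclear rows with the highest Pearson correlation of within-group deviations (log2 CPM, prior count 2). Members and lists were chosen with earlier results of these data known. No 2 libraries of a group agreed within sampling noise (lowest chi-square per degree of freedom 45.1 over 46 pairs).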

Additional observations from a re-analysis of the deposited data

Results flagged for a closer look

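Of 52 groups of 4 to 6 libraries checked for a single distant value, 6 were picked out; chance picks about 1 in 20. Library cerebrum mutant 1 accounts for 5. Its Pro-CGG-1 level was 7155 CPM, with the next mutant at 3693, its Pro-TGG-1-1 level 7540 CPM (next 3968), its Pro-TGG-2 level 9560 CPM (next 5003) and its Pro-TGG sum 17351 CPM (next 9175). Proline made up 2.03% of its nuclear counts, against 1.39% in the next mutant. These measures overlap, since they share the 3 major rows. The other is cerebellum mutant 5, in which Pro-TGG-1-1 took 29.4% of the proline pool, with the next mutant at 25.6%; without it the change of this row's ratio between genotypes moved from -0.12 (adjusted p = 0.438, limma) to -0.19 (0.0671), and the change of its level from 0.06 to -0.07.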

How the results depend on the processing

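Of 492 alternative values for 61 results, 421 kept direction and side of the threshold, 16 lost the threshold, 15 gained it and 40 changed sign; of 693 values with a library left out, 625, 22, 13 and 33 did so. Nearly all sign changes were of genotype changes near 0. The causes were not tested. A pseudocount of 5, no filter and a minimum mean count of 50 were among the alternatives.

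Genotype, cerebrum. Mitochondrial scaling gave -0.33 for Pro-CGG-1, -0.38 for Pro-TGG-1-1, -0.36 for Pro-TGG-2 and -0.59 for the Pro-AGG sum (adjusted p = 0.0219, edgeR). Spike-in scaling gave -0.32, -0.36 and -0.34 for the same 3 rows, and called Pro-AGG-1 (-0.57, adjusted p = 0.0275) and Pro-TGG-3-1 (-0.91, 0.000422). With it 74 of 208 tRNAs were called lower and 0 higher. Library totals gave -0.046 for Pro-TGG-1-1, -0.022 for Pro-TGG-2 and 0.0051 for the Pro-CGG sum, and limma-voom gave -0.018 for Pro-TGG-1-1. Nuclear tRNAs alone gave 0.063 for the Pro-CGG and 0.016 for the Pro-TGG sum, and a sex term gave 0.038 for Pro-CGG.

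Genotype, cerebellum. Mitochondrial scaling gave -0.19 for Pro-AGG-1 and its sum, -0.24 for Pro-CGG-1 and its sum, -0.32 for Pro-TGG-1-1, -0.17 for Pro-TGG-2, -0.26 for Pro-TGG-3-1 and -0.23 for the Pro-TGG sum. Spike-in scaling gave -0.36, -0.39, -0.43, -0.32, -0.43 and -0.37 in that order. Depth class as a covariate gave -0.0025 for Pro-AGG-1, -0.071 for its sum and -0.18 for its ratio. Within depth classes, where 1 side is a single library, deep libraries alone gave -0.21 for Pro-AGG-1 and -0.24 for its sum, and shallow libraries alone -0.14 for Pro-TGG-3-1.

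Tissue. In wildtype, library totals left the sums of Pro-CGG (-0.18) and Pro-TGG (-0.28) past no threshold. In mutants they gave -0.28 for Pro-AGG, -0.12 for Pro-TGG and 0.024 for Pro-TGG-2, none called. The mutant Pro-TGG sum was also lost with DESeq2 (-0.37), RLE size factors (-0.37), limma-voom (-0.33), nuclear tRNAs alone (-0.28) and a sex term (-0.34). The Pro-CGG sum was gained with mitochondrial (-0.36) and spike-in scaling (-1.48). Spike-in scaling turned the difference of genotype effects to -0.070 for Pro-CGG and -0.0031 for Pro-TGG.

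Libraries left out. In cerebrum the genotype change ran from -0.17 to 0.18 for Pro-CGG-1, -0.24 to 0.14 for Pro-TGG-1-1 (ratio -0.042 to 0.011), -0.21 to 0.16 for Pro-TGG-2, -0.45 to -0.14 for the Pro-AGG sum, -0.34 to 0.041 for Pro-TGG and -0.28 to 0.075 for Pro-CGG. In cerebellum it ran from -0.0074 to 0.21 for Pro-TGG-3-1 (ratio -0.16 to 0.034), -0.065 to 0.12 for Pro-TGG-1-1, -0.062 to 0.17 for the ratio of Pro-AGG-1, -0.023 to 0.19 for its sum and -0.0050 to 0.028 for the ratio of Pro-TGG. Between mutant tissues the sums ran from -0.69 to -0.32 for Pro-AGG, -0.51 to -0.083 for Pro-TGG (ratio -0.032 to 0.0013) and -0.47 to -0.066 for Pro-CGG. The difference of genotype effects for Pro-CGG ran from -0.022 to 0.35.

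The replicate block used numbers that the labels do not tie to an animal, though the sex is the same in 10 of 10 same-numbered pairs of the 2 tissues within a genotype. Same-numbered libraries of the 2 tissues correlated in their deviations at -0.18 to 0.26 in mutants and -0.017 to 0.45 in wildtype, and 0 of 4 and 4 of 6 correlated best with their own number; between genotypes r ran from -0.29 to 0.56 in cerebrum (2 of 4 best with their own) and -0.016 to 0.18 in cerebellum (0 of 5). Of 61 block values 54 kept direction and side. The block gave -0.40 for the Pro-AGG sum in cerebrum (adjusted p = 0.00248), -0.67 for Pro-TGG-3-1 (0.00205) and -0.025 for Pro-TGG-1-1 there, and -0.036 for the ratio of Pro-AGG-1 in cerebellum, and between mutant tissues -0.43 for the Pro-AGG sum (adjusted p = 0.0550), -0.36 for Pro-CGG (0.0219) and -0.33 for Pro-TGG-2 (0.0354).

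Pro-TGG-3-1 had the lowest counts of the 5 rows, 123 to 598 per cerebellum library.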
